A study of Mus musculus with 4 samples.

Results

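The reads described here were listed under names of miRNA hairpins and not under a mature miRNA, which is an annotation and does not show their origin. They were chosen from the deposited table as reads of the miRNA class whose finer class was anything but mature, and a hairpin name was kept when it had 30 or more reads summed over the 4 libraries. This left 234 of 606 hairpin names, out of 1608 miRNA names of both kinds, and the 234 held 799388 of the 801700 hairpin-named reads (99.7%). The read total chose the members, so how abundant they are is a description and is not tested. The names mir-1291, mir-134 and mir-486b stood just inside the limit with 30 reads each, and mir-219a-1, mir-3473b and mir-483 just outside it with 29 each. Small RNA was sequenced from testes of 16-day-old mice, from 2 Hsf5 knockdown libraries and 2 wild-type libraries. Heat shock factor 5, the product of Hsf5, is a transcription factor of the testis, and the series was made to look for piRNA changes when it is reduced. Replicates are biological per the labels. The labels say knockdown and the table itself says knockout for the same libraries, and the word of the labels is used here. The sources used here do not say how the knockdown was made, in which cells, or whether animals were pooled. Small RNA libraries do not measure the Hsf5 transcript.

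A miRNA is cut from a folded transcript in steps. The nuclease Drosha frees a hairpin, Dicer cuts off its loop, and one arm of the duplex, named 5p or 3p by its side of the hairpin, is loaded into an Argonaute protein. The cuts are not exact, so that a miRNA is found with several ends, called isomiRs. An end shifted on the 5′ side moves the seed (bases 2 to 8), which pairs with targets, and an end shifted on the 3′ side leaves the seed in place. In testis a further class, the piRNAs of about 25 to 31 nt, is cut from long transcripts of piRNA loci in spermatocytes without a hairpin.

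Most of these reads were not from the loop or the flanks of the hairpin, whatever the hairpin names say. They overlapped a mature arm, and in most of them the arm's own 5′ end was kept and 1 or 2 bases were added at the 3′ end. The pairs below are shown because they carry this pattern. Each RefSeq mature arm (table of build GRCm38.p6) has its seed in capitals, and below it stands the most abundant read under the hairpin name, with the bases past the end of the arm in capitals.
miR-30a-5p, RefSeq mature: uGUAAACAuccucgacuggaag
mir-30a, read: tgtaaacatcctcgactggaagCT
miR-30e-5p, RefSeq mature: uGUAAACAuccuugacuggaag
mir-30e, read: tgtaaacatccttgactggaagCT
miR-21a-5p, RefSeq mature: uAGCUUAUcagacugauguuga
mir-21a, read: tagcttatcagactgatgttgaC
miR-7a-5p, RefSeq mature: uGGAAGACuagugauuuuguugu
mir-7a-1, read: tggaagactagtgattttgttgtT
miR-470-5p, RefSeq mature: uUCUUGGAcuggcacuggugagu
mir-470, read: ttcttggactggcactggtgagtT
miR-191-5p, RefSeq mature: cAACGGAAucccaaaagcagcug
mir-191, read: caacggaatcccaaaagcagctgT
let-7b-5p, RefSeq mature: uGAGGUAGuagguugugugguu
let-7b, read: tgaggtagtaggttgtgtggttT
miR-10b-5p, RefSeq mature: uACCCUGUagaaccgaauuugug
mir-10b, read: accctgtagaaccgaatttgtgT

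The mir-10b read is the exception among these, since it starts 1 base inside the arm as well as ending 1 base past it, so that its bases 2 to 8 are not those of the mature arm. In the other pairs the seed is unchanged, and the miR-30a and miR-30e arms share theirs. Seeds were grouped by the RefSeq arm that a member overlapped, where the table gave one, which it did for 176 members and not for mir-30d. By the arm and not by the start of each read, the seed of miR-30a stood in 4 members with 14.5% of all member reads, that of miR-10b in 2 members with 7.43%, that of let-7b in 11 members with 6.28% and that of miR-7a in 2 members with 5.3%. In the 2 mir-10 members most reads were shifted off that seed. On GRCm39 with GENCODE M39 the hairpin of mir-30a lay at chr1:23311350-23311420 (plus strand), in no protein-coding or lncRNA gene. The hairpin of mir-30e lay in an intron of Nfyc (chr4:120629803-120629894, minus strand), and that of mir-7a-1 in an intron of Hnrnpk (chr13:58540593-58540700, minus strand). The mir-10b hairpin lay in the introns of Hoxd3 and Hoxd4 (chr2:74556414-74556481, plus strand), and the mir-21a hairpin overlapped an exon of Vmp1 (chr11:86474893-86474984, minus strand). The hairpins of mir-191 (chr9:108445518-108445591, plus strand) and let-7b (chr15:85591520-85591604, plus strand) overlapped exons of lncRNA genes, and mir-470 (chrX:65857557-65857631, minus strand) lay in neither kind of gene.

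The libraries held 9619666 and 10900306 reads in Hsf5 knockdown and 11117460 and 9260452 in wild type. Of these, 202750 and 209277 in knockdown, and 239448 and 150225 in wild type, stood under hairpin names. Levels below are hairpin-named reads per 1000000 miRNA reads of the library. Knockdown replicate 2 stood apart from the other 3 libraries: its scaling factor over the miRNA names (trimmed mean of M-values, TMM) was 0.722, against 1.13 in knockdown replicate 1 and 1.09 and 1.12 in wild type. Its mature markers of Sertoli and Leydig cells summed to 1655 reads per 1000000 miRNA reads, against 3683 in knockdown replicate 1 and 3908 and 3395 in wild type. Its mature endothelial markers summed to 1421, against 3777 in knockdown replicate 1 and 3946 and 4299 in wild type. Not all other cell types were low in it. Its muscle markers were the highest, at 1757, against 1338 in knockdown replicate 1 and 1584 and 1439 in wild type. The only liver marker, of low level, was also highest there, at 3.39. The blood markers were lowest there by a smaller margin, at 172. The sums for spermatocytes were 7748 and 6946 in knockdown and 5659 and 9567 in wild type, no marker name of any of the 6 cell types was at 0, and their part in the results was not tested. Reads of the piRNA cluster class made up 25.1% and 38% of all reads in knockdown and 24.6% and 34.2% in wild type. In these bulk libraries, fewer cells of a type and less RNA per cell cannot be told apart.

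Reads under hairpin names made up 9.4% and 10.1% of all miRNA reads in Hsf5 knockdown, against 10.7% and 9.71% in wild type. The groups overlapped, and the knockdown mean of 9.77% ± 0.523 (SD, n = 2) stood 0.418 points below the wild-type mean of 10.2% ± 0.685 (SD, n = 2; two-sided exact permutation p = 0.667). With 2 libraries against 2 there are 6 assignments and p cannot go below 0.333. The Wilson 95% interval of each share was at most 0.0466 points to either side, for counting error only, so the spread between libraries was wider than the counting error.

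By length, these reads were longer than mature reads, which the class itself largely sets. All mature-named reads of 845 names lay within RefSeq mature arms, and 0 hairpin-named reads lay wholly inside one. The lengths are therefore a description. Reads of 24 nt made up 48.2% and 50.5% of the hairpin-named reads in knockdown and 49.9% and 47.7% in wild type. Reads of 23 nt made up 38% and 38.5% in knockdown and 37.6% and 37.9% in wild type. The mature reads of the same libraries peaked at 22 nt, with 48.6% and 55.3% in knockdown and 52.5% and 49.6% in wild type, and held at most 0.476% of 24 nt. The piRNA lengths of 25 to 31 nt took 3.27% and 3.93% of the hairpin-named reads in knockdown and 3.73% and 4.6% in wild type, with overlapping groups (difference -0.566 points, exact permutation p = 0.667). Counted by name, the main length was 23 nt in 88 members, 24 nt in 49, 22 nt in 45, 25 to 31 nt in 33, under 22 nt in 18 and over 31 nt in 1.

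**Figure D1:**
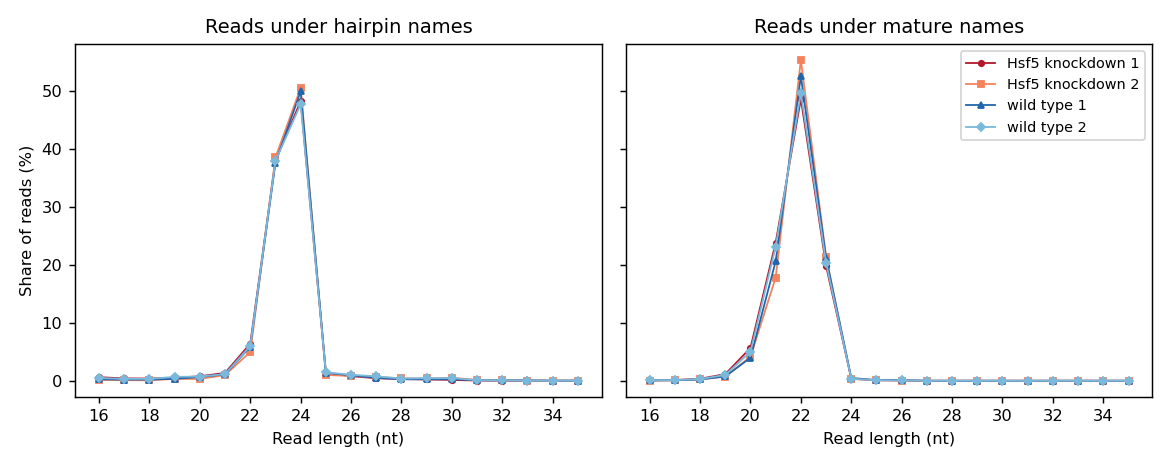
Share of reads (%) by read length (nt) under hairpin names (left) and mature names (right), with a line for each library. Hairpin-named reads are mainly 23 and 24 nt long and mature reads mainly 22 nt, and the 4 libraries lie close to each other.

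Placed against the mature arm, 86.2% and 85.7% of the member reads in knockdown, and 86.1% and 85.1% in wild type, had the arm's 5′ end and a longer 3′ end. Of these, the reads longer by 1 base made up 63.2% and 57% in knockdown and 65.2% and 64.7% in wild type. The reads longer by 2 bases made up 35.5% and 41.2% in knockdown and 33.2% and 33.5% in wild type, so that both knockdown libraries stood above both wild-type libraries (difference 5.02 points, exact permutation p = 0.333, the smallest the design allows). The base added in reads longer by 1 was T in 50.1% and 50% of knockdown reads and in 54.6% and 52.5% of wild-type reads, and C in 41% and 36.2% of knockdown reads and 36.2% and 37.5% of wild-type reads. The 2 bases added were CT in 92.3% and 94% of knockdown reads and 91.5% and 91.6% of wild-type reads, which is the extension seen in mir-30a and mir-30e above. Nearly all of these reads matched the hairpin exactly (99.9% of those with a RefSeq hairpin), so a tail that the hairpin does not encode would be missing from them.

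Most single names did not show this order of the libraries. Among reads of mir-30d longer by 1 or 2, those longer by 2 made up 63.8% and 77.7% in knockdown and 64% and 63.3% in wild type, so only knockdown replicate 2 was high. In mir-30a they made up 59.4% and 75.1% in knockdown and 66.6% and 62.8% in wild type, and in mir-30e 93.5% and 93.9% in knockdown and 93.9% and 93.2% in wild type. In mir-21a, from a miRNA widely expressed in dividing cells, they made up 14.4% and 13.7% in knockdown and 19.6% and 16.5% in wild type, with both knockdown libraries below. Over the 60 names with at least 500 such reads, counted with copies joined as described below, both knockdown libraries were above both wild-type libraries in 7, below in 14 and overlapping in 39.

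**Figure D2:**
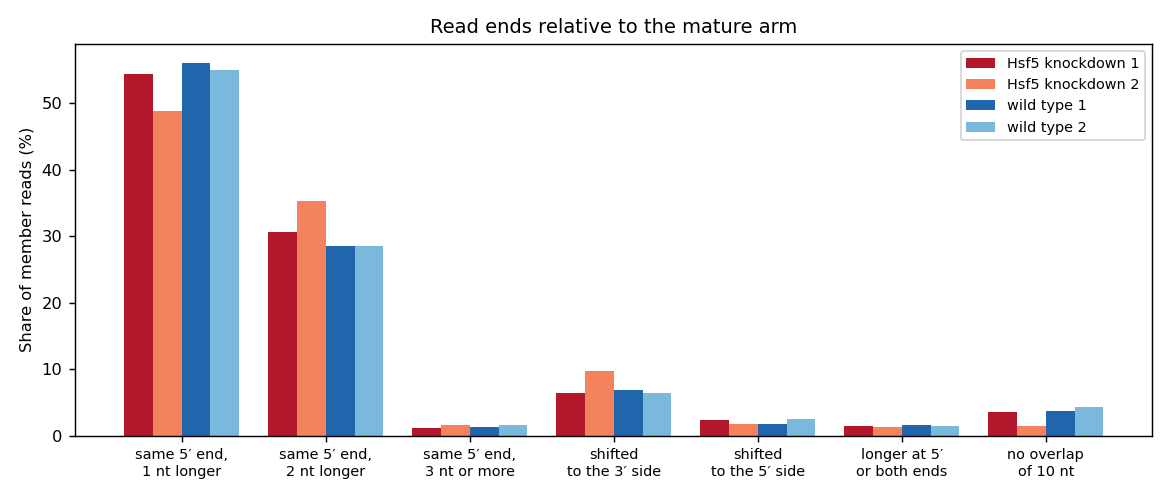
Share of member reads (%) by the position of their ends relative to the mature arm, with a bar for each library. Reads with the arm's 5′ end and 1 or 2 more bases at the 3′ end make up most of every library.

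Reads shifted as a whole to the 3′ side made up 6.44% and 9.8% in knockdown and 6.82% and 6.5% in wild type, and reads shifted to the 5′ side 2.32% and 1.69% in knockdown and 1.8% and 2.55% in wild type. Reads counted as overlapping no mature arm (at least 10 nt) made up 3.58% and 1.48% in knockdown and 3.77% and 4.3% in wild type. This class also held all reads of the 11 members without mature-named reads, which could not be placed against an arm. The most abundant of these, mir-6236, had levels of 2173 and 265 in knockdown and 2902 and 2553 in wild type. The low share in knockdown replicate 2 therefore cannot be read as a difference in position. By their main type of end, 146 members had the arm's 5′ end and a longer 3′ end. Another 19 were shifted to the 3′ side, 21 to the 5′ side, and 30 were counted as overlapping no arm. In the other 18 members none of these types held the majority, but some had a different main type. In mir-411, 78.5% of the reads had the arm's 3′ end and a longer 5′ end. In mir-677, 75.5% were longer at both ends. The most abundant of the 19 shifted to the 3′ side were mir-10b, with 67.2% of its reads shifted so, and its relative mir-10a, with 61.6%. The most abundant of the 21 shifted to the 5′ side was mir-99a, with 98.2% of its reads shifted so.

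For 182 members, with 61.2% of the member reads, RefSeq gave a hairpin that held their reads. On these the 5p arm took 95.9% and 95.8% of the reads in knockdown and 96.9% and 95% in wild type. The 3p arm took 0.786% and 0.842% in knockdown and 0.698% and 1.36% in wild type, and the loop 0.523% and 0.759% in knockdown and 0.353% and 0.792% in wild type. No read lay downstream of the 3p arm. All positions outside the arms, including those beside the arm of a hairpin for which only 1 arm was listed, came to 3.3% and 3.34% in knockdown and 2.44% and 3.65% in wild type (difference 0.275 points, exact permutation p = 1). Positions beside the only listed arm made up most of this, with 2.66% and 2.55% in knockdown and 2.04% and 2.78% in wild type. RefSeq listed only the 3p arm for mir-532 and mir-185, for example. Set against their mature-named reads, 97.7% and 100% of their reads kept an arm's 5′ end with a longer 3′ end. The mature reads were less one-sided, with 65.9% and 56.5% under 5p names in knockdown and 63.1% and 64.3% in wild type.

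The member reads were unevenly spread over the names. The median member had 274 reads, 72 members had under 100 and 16 had at least 10000, and 219 of the 234 were seen in every library. The name mir-30d alone held 30.8% of the reads, the leading 5 names 54.5% and the leading 12 names 69%. The leading name, mir-30d, had levels of 32154 and 28505 in knockdown and 31951 and 29804 in wild type, so that the groups overlapped (log2 fold change 0.29, SE 0.41, adjusted p = 0.999 by edgeR's quasi-likelihood test over all names). Levels are scaled by the miRNA reads of each library and fitted fold changes also by the TMM factors, which raise the values of knockdown replicate 2, so the direction of a level and of its fold change can differ, as here. Its relative mir-30a had levels of 7462 and 13817 in knockdown and 7644 and 7155 in wild type, with only knockdown replicate 2 high. The mir-30 family is widely expressed and of moderate to high level in many tissues.

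The hairpin mir-10b, of the Hox gene clusters, had levels of 4432 and 10461 in knockdown and 6813 and 4983 in wild type, and its 2 knockdown libraries lay on either side of the wild-type ones. The levels of mir-21a were 4299 and 4852 in knockdown and 5305 and 4536 in wild type. The levels of mir-470, of the X-linked cluster of testis miRNAs, were 1915 and 2172 in knockdown and 2137 and 1939 in wild type. Both hairpins kept to a narrow range in the 4 libraries. The levels of mir-191 were 2404 and 605 in knockdown and 1903 and 2469 in wild type, and those of let-7b were 1303 and 1648 in knockdown and 1473 and 1555 in wild type. Among these names mir-191 was the one in which knockdown replicate 2 stood far below the rest.

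The names mir-3470b, mir-3470a and mir-6236 had reads that were also counted in other classes when they were part of a longer read. The levels of mir-3470b were 2179 and 1957 in knockdown and 2283 and 2032 in wild type, and those of mir-3470a 1278 and 2058 in knockdown and 1465 and 1373 in wild type. Of the reads in the whole table that hold the most abundant mir-3470b read, 67.3% were of the miRNA class, 19.9% of the SINE class and 11.8% of the LTR class, so a part of such RNA is listed among repeats. The levels of mir-6236 were 2173 and 265 in knockdown and 2902 and 2553 in wild type, with both knockdown libraries below and 1 of them far below (log2 fold change -1.10, SE 0.79, adjusted p = 0.999 by edgeR). No mature reads stood beside it, its most frequent length of 23 nt held only 11.8% of its reads, and 43.9% of the reads that hold its most abundant read were of the gene class. Without mature-named reads, its own reads could not be placed against an arm, and all were counted as overlapping none. With 15689 reads it was the most abundant member counted so.

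Copies of a hairpin with the same mature arm cannot be told apart by most of these reads, and the deposited names moved between copies from library to library. The name mir-7a-1 had 7006 and 425 reads in knockdown and 17271 and 287 in wild type, while mir-7a-2 had 3 and 10843 in knockdown and 11 and 6539 in wild type. The name mir-30c-2 had 11021 and 4 reads in knockdown and 11470 and 0 in wild type, while mir-30c-1 had 2 and 4058 in knockdown and 50 and 7945 in wild type. Among sequences found in at least 2 libraries, those whose name differed between libraries held 14.5% of hairpin-named reads, beside 1.8% of mature reads, and they made up over 50% of the reads of 33 members. Joining names that differ only in their last number turned the 234 names into 212 and left 0.319% of reads with such a change. The levels of a single copy are therefore not results, and values for joined copies follow.

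**Figure D3:**
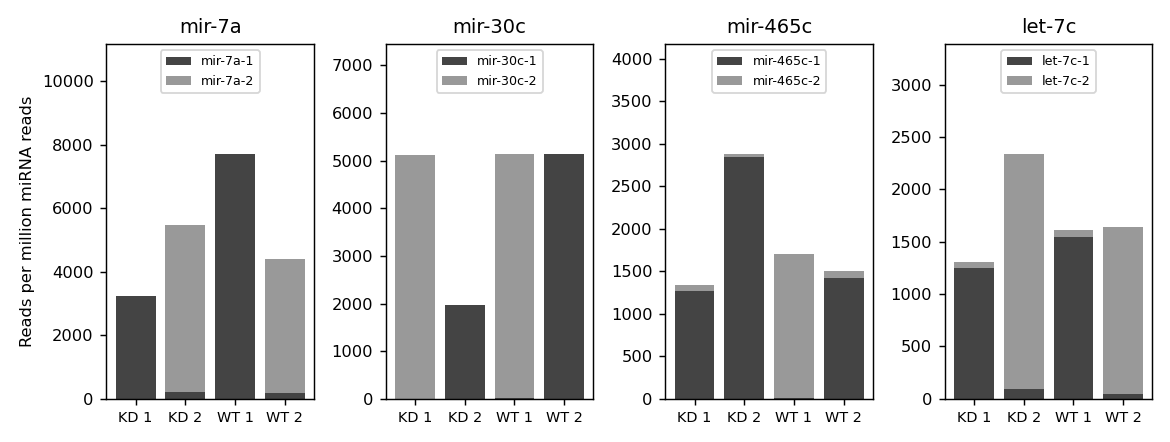
Reads per 1000000 miRNA reads of 4 pairs of hairpin copies in the 2 Hsf5 knockdown (KD) and 2 wild-type (WT) libraries, with the 2 copies stacked in dark and light grey. The copy that holds the reads changes between libraries within 1 group, while the stacked height changes less.

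With copies joined, mir-7a had levels of 3251 and 5462 in knockdown and 7706 and 4411 in wild type. The levels of mir-30c were 5113 and 1969 in knockdown and 5137 and 5134 in wild type, with knockdown replicate 2 the only low library. In mir-465c, of the X-linked testis cluster, they were 1341 and 2880 in knockdown and 1706 and 1499 in wild type, so that here the same library was the high one. In let-7c, of a family that rises as cells differentiate, they were 1310 and 2336 in knockdown and 1616 and 1638 in wild type. None of these 4 passed the test, with adjusted p = 0.998 by edgeR in each.

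**Figure D4:**
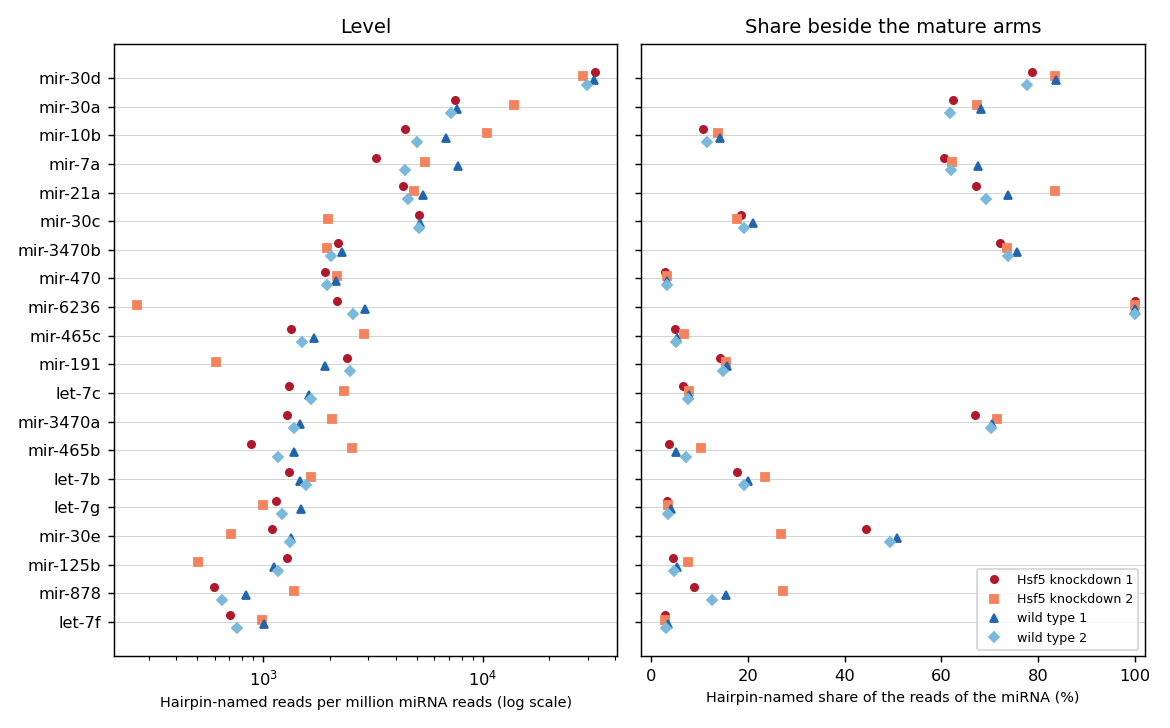
Hairpin-named reads per 1000000 miRNA reads (left, log scale) and the hairpin-named share of all reads of the same miRNA in % (right) for the 20 most abundant hairpins with copies joined, with a point for each library. Knockdown replicate 2 lies below the other 3 libraries for mir-30c, mir-6236, mir-191, mir-125b and the share of mir-30e, and above them for mir-30a, mir-10b, mir-465b, mir-465c and mir-878.

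Across all miRNA names, mature and hairpin, 969 passed the filter of 1 count per 1000000 in 2 libraries, 231 of the members among them. No name of either kind passed an adjusted p of 0.05 by edgeR's quasi-likelihood test (0% called), none by DESeq2, and 15 (1.55%) had an unadjusted p under 0.05, with 5 higher (0.516%) and 10 lower (1.03%) in knockdown. Of these 15, 1 was a member, mir-30b. In 4 members each knockdown library had a higher level than each wild-type library, against 6.09% of all names tested, and in 55 members each had a lower level, against 22% of all names tested, or 213 of 969. These counts rest on names as deposited, single copies included, and on levels without TMM factors. With them the fitted fold changes had a median log2 of 0.01 in the members and 0.01 in all names, with 120 members above 0 and 111 below. The biological coefficient of variation was 0.599 for names as deposited, moves between copies included, which limits what 2 libraries a group can show.

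The lowest p-values among members that were lower belonged to mir-30b, mir-546 and mir-3064. The levels of mir-30b were 4.17 and 2.91 in knockdown and 12 and 10.3 in wild type, without overlap (log2 fold change -1.38, SE 0.53, adjusted p = 0.999 by edgeR). The levels of mir-546, in the span of the piRNA locus at Ctdsp2, were 4.64 and 2.42 in knockdown and 9.36 and 11.6 in wild type, and those of mir-3064 were 1.39 and 1.94 in knockdown and 6.24 and 6.46 in wild type. Each of these 3 rested on 58 reads or fewer in all 4 libraries. The lowest p-values among members that were higher belonged to mir-8114, mir-7214 and mir-203. The levels of mir-8114 were 8.35 and 8.24 in knockdown and 4.46 and 3.23 in wild type, from 50 reads in all (log2 fold change 1.40, SE 0.59, adjusted p = 0.999 by edgeR). The levels of mir-203, an epithelial miRNA, were 7.42 and 29.1 in knockdown and 7.58 and 7.75 in wild type, so that its fold change came from 1 library, and without knockdown replicate 2 the log2 fold change was -0.05.

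Knockdown replicate 1 decided the number of calls once copies were joined. Without it, and with copies joined, edgeR called 43 names higher (4.95% of 868 tested) and 22 lower (2.53%), while with any other library left out it called 0. Of these, 10 were hairpin names called higher and 2 hairpin names called lower, and with 1 knockdown library left the fit assumes that it would vary as the wild-type ones do, so these calls compare knockdown replicate 2 with wild type. The hairpins called higher included mir-203 (log2 2.60), mir-465b (1.67), mir-30a (1.59), mir-878 (1.58), mir-465c (1.53) and mir-183 (1.30), and those called lower were mir-6236 (-2.68) and mir-455 (-1.75). The others called higher were mir-532 (1.24), mir-3470a (1.22), let-7c (1.21) and mir-1839 (1.18). In knockdown replicate 1 these hairpins were not high: mir-878 had levels of 594 and 1382 in knockdown and 833 and 647 in wild type, and mir-183, of a cluster known from sensory cells and germ cells, 129 and 244 in knockdown and 166 and 151 in wild type.

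The ratio of hairpin-named to mature reads differed widely between hairpins. Mature reads of the same hairpin were present for 223 members and absent for 11, and they were summed over its arms. Of the member reads that overlapped a 5p- or 3p-named arm, at least 98.7% in each library overlapped a 5p one. A ratio can therefore set reads of 1 arm against mature reads of both. The hairpin-named share of the reads of a miRNA had a median of 15.6% over the 223. It was under 10% in 93 members, 10 to 50% in 63 and over 50% in 67, and counting the 11 without mature reads, 78 members had more hairpin-named than mature reads. The highest ratios among members with at least 100 reads belonged to mir-3473h with 536 hairpin-named reads and 1 mature read, mir-7229 with 365 and 2, mir-7241 with 2208 and 19, mir-714 with 915 and 8, and mir-1194 with 969 and 13. The lowest belonged to mir-741 with 104 hairpin-named and 184811 mature reads, mir-148a with 261 and 444965, mir-99b with a share of 0.0864% beside 343334 mature reads, mir-881 with 518 and 490065, and let-7f-1 with 318 and 218611. Among these, mir-741 and mir-881 are of the X-linked testis cluster, and let-7f-1 shares its arm with let-7f-2, with which its share was 2.85% and 2.9% in knockdown and 3.53% and 3.03% in wild type.

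Among abundant hairpins the share was high in mir-30d, with 78.8% and 83.4% in knockdown and 83.6% and 77.7% in wild type. In mir-21a it was 67.1% and 83.5% in knockdown and 73.7% and 69.2% in wild type, in mir-7a with copies joined 60.5% and 62.1% in knockdown and 67.6% and 62% in wild type, and in mir-30a 62.4% and 67.3% in knockdown and 68.2% and 61.7% in wild type. For these 4 miRNAs a count of mature-named reads alone leaves out most reads of the miRNA. In mir-470 the share was low and narrow, with 2.94% and 3.33% in knockdown and 3.35% and 3.27% in wild type, and in mir-191 it was 14.2% and 15.5% in knockdown and 15.7% and 14.9% in wild type although its level differed widely between the knockdown libraries. In mir-30e the share was 44.4% and 26.9% in knockdown and 50.9% and 49.4% in wild type, with both knockdown libraries below (log2 fold change of the ratio -0.89, SE 0.52, adjusted p = 0.994 by edgeR).

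The ratio was tested in 194 members, under names as deposited and with at least 30 reads of each kind, as the interaction of the kind of read with genotype. None passed an adjusted p of 0.05 by edgeR (0% called), and 1 had an unadjusted p under 0.05 (0.515%). Both knockdown libraries were above both wild-type libraries in 17 of the 194 (8.76%) and below in 39 (20.1%). Since only members can enter this test, these are the same list and no separate background. A library without reads of either kind was counted as a share of 0%. The 39 thus include mir-7230, which had 0 reads of both kinds in knockdown replicate 1. The name with the lowest p was mir-30b, with shares of 0.419% and 0.652% in knockdown and 1.31% and 1.04% in wild type (log2 fold change of the ratio -1.17, SE 0.38, adjusted p = 0.994 by edgeR). The next lower ones were mir-361, with 0.183% and 0.256% in knockdown and 0.427% and 0.353% in wild type, and mir-181c, with 2.82% and 0.752% in knockdown and 6.69% and 4.46% in wild type. The lowest p-values among higher ratios belonged to mir-497a, with 28.3% and 33.3% in knockdown and 21.1% and 19.3% in wild type, to mir-212, with 28.6% and 28.6% in knockdown and 17% and 20.5% in wild type, and to mir-8114, with 40% and 77.3% in knockdown and 18.9% and 27.8% in wild type. Each of these 6 rested on 100 hairpin-named reads or fewer.

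A further group of members had longer reads. In 34 members over 50% of the reads were 25 to 31 nt long, and 16 of these 34 lay by position inside piRNA loci named in the same table. In all, 220 members could be placed on GRCm39 and 18 of them lay in the span of 13 of the 214 piRNA loci, whichever the strand. The median share of 25 to 31 nt reads was 83.2% in those inside a locus and 0.266% in the other members. The exceptions inside were mir-26a-2, with 0.648%, and mir-700, with 0%, both in loci named after a gene. In the same locus as mir-26a-2, however, mir-546 had 88.9%. The hairpins inside loci held 46.9% and 64% of the members' 25 to 31 nt reads in knockdown and 30.6% and 53.5% in wild type. The hairpins below are shown because they carry this group. They are whole RefSeq hairpins (table of build GRCm38.p6) with the most abundant read of 25 to 31 nt in capitals.
mir-7214: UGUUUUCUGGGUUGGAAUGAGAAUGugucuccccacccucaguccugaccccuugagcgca
mir-7210: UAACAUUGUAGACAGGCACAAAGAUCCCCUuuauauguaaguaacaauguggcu
mir-7241: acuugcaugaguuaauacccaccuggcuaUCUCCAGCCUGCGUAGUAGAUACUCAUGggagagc
mir-7222: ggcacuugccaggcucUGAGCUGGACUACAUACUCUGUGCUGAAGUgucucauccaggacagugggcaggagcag
mir-7234: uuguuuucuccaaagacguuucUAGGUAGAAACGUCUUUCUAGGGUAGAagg
mir-7230: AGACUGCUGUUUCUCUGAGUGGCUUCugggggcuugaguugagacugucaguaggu

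Among these 6 the most abundant piRNA-length read started with U in 5 hairpins and with A in mir-7230, and a U at the first base is common in piRNAs. Over all members, the first base was T in 59.6% and 74.3% of the 25 to 31 nt reads in knockdown and in 52.6% and 64.2% in wild type. Among member reads of all lengths T was more frequent, with 82.4% and 84.2% in knockdown and 82.1% and 81.9% in wild type. A first T therefore does not set the piRNA-length reads apart from the other member reads. On GRCm39 the hairpins of mir-7214 (chr17:27536009-27536069, minus strand), mir-7210 (chr14:24138945-24138998, plus strand) and mir-7241 (chr9:67634999-67635062, minus strand) lay in introns of lncRNA genes on their own strand, and so did mir-7230 (chr5:113485456-113485511, minus strand). The hairpin of mir-7234 (chr7:73469338-73469389, plus strand) overlapped an exon of one, and mir-7222 (chr2:92424947-92425021, plus strand) lay across an intron of one on the other strand.

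Among the hairpins in piRNA loci, 3 had reads in 3 libraries and none in knockdown replicate 1, where the locus around them was near 0 as well. For mir-7234 there were 0 and 470 reads of 25 to 31 nt in knockdown and 250 and 428 in wild type, and its locus at 7-qD2 had 0.416 and 3987 reads of these lengths per 1000000 library reads in knockdown and 2760 and 4691 in wild type. For mir-7230 there were 0 and 232 such reads in knockdown and 134 and 236 in wild type, and for mir-7229 in the same locus 0 and 128 in knockdown and 65 and 95 in wild type. That locus, at 5-qF, had 1.25 and 5238 reads per 1000000 in knockdown and 3224 and 5583 in wild type. A count of 0 in knockdown replicate 1 allows up to 1.39 reads per 1000000 miRNA reads (3 counts, counting error only). Knockdown replicate 2 was within the range of wild type or close to it, so the 2 knockdown libraries did not agree and no difference between the groups was called.

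In loci with reads in every library the hairpins had reads in every library too. For mir-7214 the reads of 25 to 31 nt per 1000000 miRNA reads were 475 and 457 in knockdown and 216 and 259 in wild type, with both knockdown libraries above. Over all lengths its levels were 533 and 661 in knockdown and 371 and 488 in wild type (log2 fold change 0.85, SE 0.45, adjusted p = 0.999 by edgeR). Its locus at 17-qA3.3 had 44746 and 32530 reads per 1000000 in knockdown and 29971 and 32242 in wild type. For mir-7210 there were 632 and 1378 reads of 25 to 31 nt in knockdown and 550 and 739 in wild type, and for mir-7241 532 and 604 in knockdown and 452 and 585 in wild type. For mir-7222 there were 221 and 822 such reads in knockdown and 232 and 378 in wild type, with knockdown replicate 2 the highest. Reads of 25 to 31 nt made up 69.5% of all reads of mir-7214, 92.3% of mir-7210, 98.4% of mir-7241 and 83.3% of mir-7222.

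**Figure D5:**
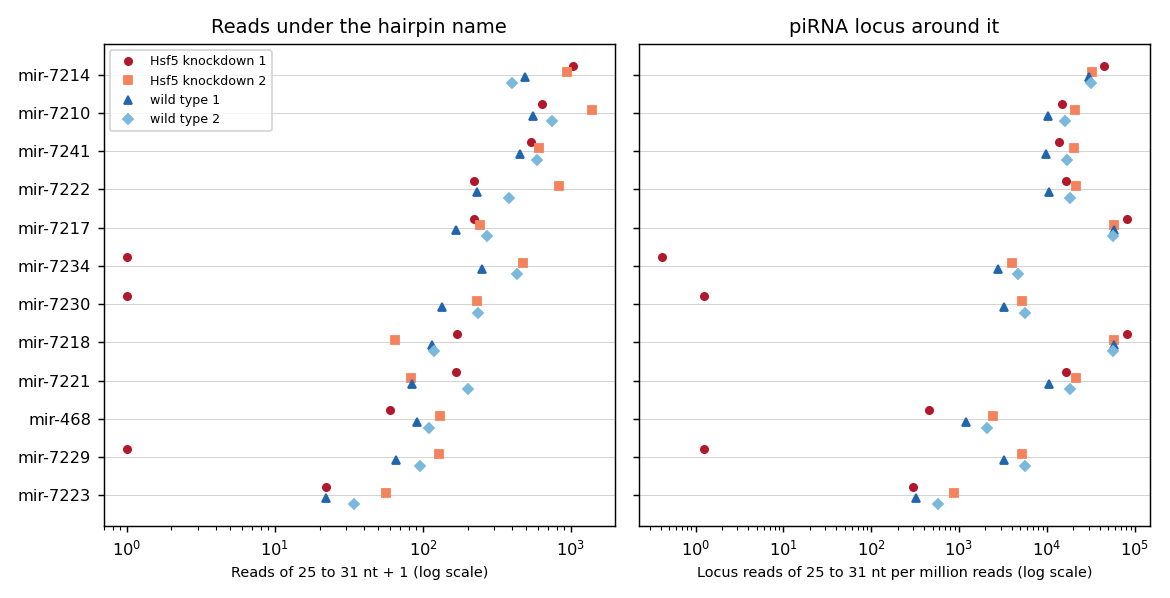
Reads of 25 to 31 nt under 12 hairpin names inside piRNA loci (left, reads + 1, not scaled by library size, log scale) and reads of 25 to 31 nt of the locus per 1000000 library reads (right, log scale), with a point for each library. Knockdown replicate 1 has no reads for mir-7234, mir-7230 and mir-7229, and the loci around them are near 0 in that library only.

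The other 18 members made mainly of reads of 25 to 31 nt lay in no such locus or were not placed. The most abundant were mir-425 with 2322 reads, mir-541 with 1810, mir-1194 with 969 and mir-342 with 756. In mir-541, of the imprinted Dlk1-Dio3 region, 99.1% of the reads had the 5′ end of the mature arm and a longer 3′ end, and 98.3% were 26 nt long. In mir-425, 98% kept the arm's 5′ end and 72.2% were 25 nt long. Most reads of these 2 hairpins thus shared the 5′ end of a mature-named read and ran past its 3′ end. Inside piRNA loci, so did 96.4% of the reads of mir-7210, 91.8% of mir-7229, 82.1% of mir-7223 and 54.9% of mir-7214. Mature-named reads were few in some of these, with 2 for mir-7229 and 3 for mir-7223. Whether the piRNA-length reads of these hairpins are extended miRNA arms was not tested. In mir-1194, 100% of the reads overlapped no mature arm.

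Hairpins that are not made by both Drosha and Dicer were listed apart, and 5 of 9 such names were members. The best known is mir-451a, a blood cell miRNA that Ago2 cuts in place of Dicer and that is then trimmed at its 3′ end. It had 19 and 37 reads in knockdown and 49 and 29 in wild type, all with the arm's 5′ end, and 65.7% were 26 nt long. Its hairpin-named share was 25.3% and 39.8% in knockdown and 46.7% and 38.7% in wild type, with overlapping groups. In mir-877, a mirtron whose hairpin is an intron, the share was 49.7% and 54.7% in knockdown and 60.8% and 47.8% in wild type. In mir-484, from a capped hairpin, it was 8.02% and 13.5% in knockdown and 11.8% and 11.9% in wild type. In mir-1839 it was 27% and 22.1% in knockdown and 27.4% and 26.4% in wild type, and in mir-664 61.4% and 67.2% in knockdown and 62.1% and 57% in wild type. None of the 5 passed edgeR's test of level or of ratio, and none had an unadjusted p under 0.05.

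In the other lists no hairpin name passed either test of edgeR. The counts and fold changes below are for names as deposited, so they include single copies whose names moved between libraries. For example, the log2 fold change was 1.15 for let-7a-1, -4.63 for let-7a-2 and 0.35 for let-7a with copies joined. Counts of members with both knockdown libraries below wild type rest on levels without TMM factors and are to be read beside the 22% of all names for which this held, and 6.09% for both above. The X-linked testis cluster had 16 members, 6 of them below and 0 above, with fitted fold changes over 0 in 7 and under 0 in 9, and summed levels of 7013 and 10412 in knockdown and 8555 and 7685 in wild type. The let-7 and mir-98 family had 11 members, 3 below and 0 above, with fold changes over 0 in 7 and under 0 in 4, and summed levels of 5381 and 6880 in knockdown and 6635 and 6163 in wild type. The clusters of mir-17-92 and mir-106b-25, which promote cell growth, had 6 members, 3 below and 0 above, with fold changes over 0 in 2 and under 0 in 4, and summed levels of 649 and 327 in knockdown and 763 and 689 in wild type. The list of the Dlk1-Dio3 region had 14 members, 2 below and 0 above, with fold changes over 0 in 10 and under 0 in 4, summing to 1263 and 947 in knockdown and 1376 and 1316 in wild type. The member mir-134, with 30 reads and both knockdown libraries below, is of that region too and was not on the list. The list of mir-297, mir-466, mir-467 and mir-669 names, most of which lie in the Sfmbt2 cluster, had 20 members, of which mir-466k and mir-466q lie on chromosome 3 and not in the cluster. Of the 20, 2 were below and 0 above, the 17 tested had fold changes over 0 in 9 and under 0 in 8, and they summed to 601 and 521 in knockdown and 757 and 652 in wild type. The spermatocyte hairpins had 2 members of 4 names, both with fold changes over 0, summing to 70 and 44.1 in knockdown and 41.5 and 58.2 in wild type. The median log2 fold changes of these lists, in this order, were -0.05, 0.28, -0.40, 0.22, 0.03 and 0.44, beside 0.01 over all names tested.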

How the data were processed

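Small RNA libraries of testes of 16-day-old mice were deposited as 1 table of raw read counts per sequence, length, library and annotation, made by the authors and not normalized. The table also gave a deposited ratio for each library, 1000000 divided by its mature miRNA reads, which served only as an alternative scaling. The submitters' processing notes name cutadapt and the build mm39, while no source used here gives the aligner or the mismatches allowed. The labels' protocol gives an insert size of 18 to 40 bases.

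Each sequence was counted once per library under its deposited name. The labels give 2 libraries per group and do not say what a shared replicate number means. Counts per name (at least 1 count per 1000000 in 2 libraries) were tested with edgeR 4.0.16 in R 4.3.3 (quasi-likelihood F test, robust, TMM, Benjamini-Hochberg at 0.05), and the hairpin to mature ratio by an interaction with a library term. The standard error of a log2 fold change is its size divided by the root of F. DESeq2 1.42.0 and limma 3.58.1 were alternatives, and both scripts were tested on simulated data. P-values measure the spread between these libraries. With names as deposited, libraries differed within a group beyond sampling noise (chi-square per degree of freedom 289 in knockdown and 250 in wild type). Moves of names between copies of a hairpin count as spread in these values, which were not computed with copies joined. A hairpin-named read was placed against the longest mature-named read of each arm of the same hairpin, and an overlap needed at least 10 nt. The reads of the 11 members without mature-named reads were counted as overlapping no arm. All mature-named reads of 845 names lay within RefSeq mature arms, and 0 hairpin-named reads lay wholly inside one, so the class depends on where the annotated arm ends. RefSeq hairpins held 99.9% of the reads of the 182 matched members. Shares were compared by exact two-sided permutation over the 6 assignments.

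The members, lists and tests were chosen with earlier results of these data known. Named were the 12 most abundant members, the 5 highest and 5 lowest ratios at 100 or more hairpin reads, the 3 lowest p-values in each direction of each test, the 3 names to either side of the read limit and the non-canonical hairpins. Names outside this rule, such as mir-30e, mir-425 and the hairpins in piRNA loci, were chosen after their values were seen.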

Additional observations from a re-analysis of the deposited data

How the results depend on the processing

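No member passed the test of level with other size factors, with scaling by all or by mature reads, by DESeq2, with reads of 18 to 25 nt only, with 1 name per sequence, with the replicate block or with copies joined; without a filter 2 mature names did (miR-199a-3p and miR-7686-5p, both lower), and with names as deposited there were 0 calls whichever library was left out. With copies joined, which was chosen after seeing the data, leaving out 1 library gave 0 to 65 calls of all names and 0 to 12 of hairpin names, all of them without knockdown replicate 1. In the same setting the log2 fold change of the level of mir-203 was 2.60 (adjusted p = 0.0424 by edgeR) without knockdown replicate 1 and -0.04 without knockdown replicate 2, and as deposited it lay between -0.05 (without knockdown replicate 2) and 2.57 (without knockdown replicate 1). The ratio test gave 4 calls with the replicate block, all lower (mir-465c-2, mir-467a-10, mir-467a-5 and mir-467a-9). These are copies whose names moved between libraries, for 98%, 100%, 99.1% and 100% of their reads in this order, and the labels do not say that equal numbers pair libraries. With copies joined the ratio test gave 0 to 1 calls without 1 library, mir-467b without wild type replicate 1 and mir-486b without wild type replicate 2. As deposited, 100% of the reads of mir-467b were of a sequence whose name moved between libraries, with 0 reads under mir-467b in wild type replicate 2. Leaving out 1 library moved the difference in the hairpin share of miRNA reads between -0.902 and 0.0664 points, that of 25 to 31 nt reads between -1 and -0.131, and that of reads outside the arms between -0.327 and 0.877. With each distinct sequence counted once in place of its reads, these 3 differences were -1.43, -2.44 and -1.2 points, against -0.418, -0.566 and 0.275 by reads. Where no cause is named, the cause was not tested. Depth was not the limit for abundant names, but many members had under 100 reads, and 2 libraries a group limit every test.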
